A study of Homo sapiens with 5 samples.

Results

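Chromatin accessibility was examined at 10 genes that mark luminal identity in the mammary gland: the transcription factor genes GATA3, ELF3, EHF, ELF5 and SPDEF, the surface protein genes EPCAM and MUC1, the prolactin receptor gene PRLR, and the trefoil factor genes TFF1 and TFF3. The rule names the genes and uses no score. Their members in the data were 104 of the 181723 ATAC-seq hotspots, the regions in which the transposase Tn5 inserted more often than in the surrounding DNA. A hotspot was taken when it lay within 1000 bp of a transcription start site (TSS) of the gene, overlapped the gene, or had the gene's TSS as its nearest protein-coding TSS within 100 kb. By these criteria 19 hotspots were at a promoter, 45 were inside a gene and 103 were assigned by distance, with 18 in all 3 classes.

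The cells were MCF10A, an established human mammary epithelial line that is not tumorigenic and grows as 1 line, with no treatment and no second group. They were kept in medium with 5% horse serum, 20 ng/ml EGF, 0.5 µg/ml hydrocortisone, 100 ng/ml cholera toxin and 10 µg/ml insulin. The 5 replicates, numbered 1, 2, 3, 5 and 6, were pooled by the authors before hotspots were called, so each hotspot has 1 score and no replicate error, and every value below is a description of that 1 list. Nothing in the labels says whether the replicates came from separate cultures. The score, which has no unit, ran from 4.36 to 912 over all hotspots, with a median of 5.81 and a 90th percentile of 16.1, and 65.1% of all hotspots shared their exact score with at least 1 other. The count of reads behind a score is unknown, so a region without a hotspot is one that did not pass the caller's threshold, not one shown to be closed.

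The mammary epithelium has an inner layer of luminal cells, which respond to hormones or make milk, and an outer layer of basal cells. GATA3 maintains the luminal fate, and the ETS-domain factors ELF3, EHF, ELF5 and SPDEF are restricted to epithelia, with ELF5 acting downstream of prolactin in the cells that form milk. Accessible promoters and distal elements are where such factors and the general machinery reach DNA, and MCF10A is usually described as basal-like. As a check of the label, 9 of 11 basal genes had a promoter hotspot, beside 77.2% of all protein-coding genes. All 9, led by SFN (36.5), scored above the 90th percentile of hotspots, beside 47.4% of all protein-coding genes. KRT14 and TP63 had no promoter hotspot, but their highest assigned scores were 13.5 and 21.8, and TP63 had 12 hotspots inside it. Of the genes of other tissues, 0 of 2 immune genes (PTPRC and CD3E) had a promoter hotspot, ALB (8.67) but not APOB had one among 2 liver genes, and NEUROD1 (4.47) but not DCX among 2 neuronal genes. All 3 mesenchymal genes had one, with COL1A1 at 24.1, VIM at 18.4 and COL1A2 at 7.87. The highest assigned scores of PTPRC, CD3E and APOB were 10.9, 10.3 and 9.75, and DCX had no assigned hotspot.

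The AP-1 letters TGAGTCA, on either strand, were in the highest-scoring hotspot of every member but MUC1 and TFF1, and 6 of these matches are shown. They are hg38, plus strand, with 50 bases on either side, or 11 at ELF3 and PRLR, and capitals mark every match to one of the 11 motifs searched.
GATA3, chr10:8054054-8054160: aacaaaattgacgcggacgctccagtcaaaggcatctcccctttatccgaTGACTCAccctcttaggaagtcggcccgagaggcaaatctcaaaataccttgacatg
ELF3, chr1:202010178-202010206: cagcagctttcTGACTCAggtcagccagg
EHF, chr11:34685351-34685457: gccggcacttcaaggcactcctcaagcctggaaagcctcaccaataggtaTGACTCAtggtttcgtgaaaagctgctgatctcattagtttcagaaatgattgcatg
SPDEF, chr6:34609773-34609879: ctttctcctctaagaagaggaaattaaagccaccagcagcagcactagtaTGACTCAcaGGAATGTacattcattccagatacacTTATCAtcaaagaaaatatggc
PRLR, chr5:35130380-35130408: agctacagggtTGAGTCAtgagtcccttt
TFF3, chr21:42320407-42320513: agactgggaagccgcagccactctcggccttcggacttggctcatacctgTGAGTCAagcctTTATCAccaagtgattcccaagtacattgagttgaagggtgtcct

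The AP-1 letters, bound by FOS and JUN proteins, were thus in the top hotspot of 8 of 10 members. Among the 18036 protein-coding genes with an assigned hotspot, 15.9% had them in the top hotspot. The AP-1 count was the highest among all motifs searched in the same 10 top hotspots, and the other counts are given further below. The median width of the top hotspots was 721.0 bp for the members and 682.0 bp for all genes. Only 2 of the 8 matches, at EHF and SPDEF, lay in the central 200 bp, where 6.97% of the top hotspots of all genes had one. Of 8120 genes whose top hotspot lay away from their TSSs, as at EHF, ELF5, SPDEF, TFF1 and TFF3, 20.9% had the letters there. With TSSs of genes of all types, the top hotspots of EHF, ELF5 and SPDEF were nearest to other genes. So were those of ELF5 and PRLR with only canonical TSSs. The letters CTGTAATCC, a piece of the known consensus of the Alu repeat, were in 15 of 104 members' hotspots (14.4%) and in 8.86% of all. The top hotspots of ELF3 and SPDEF were among the 15. The stretches printed above for the AP-1 matches did not hold CTGTAATCC. Beyond these letters, the part of the repeat in the AP-1 matches was not tested. Over all 104 hotspots of the members, 20 (19.2%) held the AP-1 letters, beside 12.6% of all hotspots. These shares are descriptions, and a match does not show that a protein was bound.

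Of the 10 members, 8 had a promoter hotspot, beside 77.2% of all 20033 protein-coding genes. At 6 of the 10 a hotspot lay within 1000 bp of the TSS of the canonical transcript, beside 70.3% of all genes. The highest promoter score was above the 90th percentile of all hotspots in 4 of 10 members, beside 47.4% of all genes. Those 4 were ELF3 (34.3), GATA3 (33.1), MUC1 (31.3) and EPCAM (23.7). PRLR (16.1) lay just under that percentile, EHF (13.5) was lower, and TFF3 (5.38) and ELF5 (4.75) were near the lowest score that the list holds. SPDEF and TFF1 had no promoter hotspot. Among all genes the promoter score of ELF3 ranked at percentile 86.4, that of PRLR at 52.4 and that of ELF5 at 25.2. The members' shares thus lay close to those of all genes, and within the set the scores ran from 4.75 to 34.3.

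**Figure D1:**
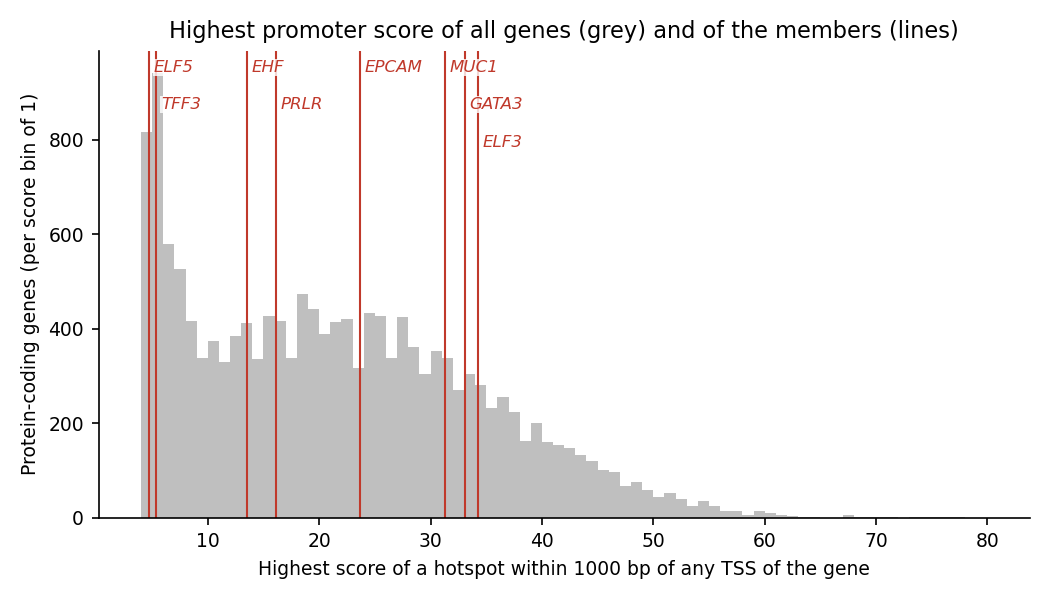
Highest score of a hotspot within 1000 bp of any TSS (x axis, score without unit) for all protein-coding genes with one (grey bars, genes per bin of 1 on the y axis) and for the 8 members with one (red lines). Of all genes, 26 lie beyond the right edge at 80; ELF5 (4.75) and TFF3 (5.38) sit in the lowest bins, and ELF3 (34.3) is the highest of the members.

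GATA3 (chr10:8045378-8075198, plus strand) had 13 hotspots, and 1 of them stood apart. The hotspot over its canonical TSS, chr10:8053315-8055289, was 1975 bp wide and scored 33.1, while the other 12 scored from 4.49 to 7.87. This hotspot also lay within 1000 bp of the TSS of GATA3-AS1, an antisense RNA gene, and how its signal divides between these promoters cannot be told. The 250 bases before the canonical TSS, from RefSeq (GRCh38.p14), are shown because they hold 4 of the hotspot's 9 matches to GGGGCGG, the letters of SP and KLF factors, and 1 match to GCCNNNGGC, those of TFAP2 factors, all in capitals.
GATA3 promoter, chr10:8054438-8054687, plus strand: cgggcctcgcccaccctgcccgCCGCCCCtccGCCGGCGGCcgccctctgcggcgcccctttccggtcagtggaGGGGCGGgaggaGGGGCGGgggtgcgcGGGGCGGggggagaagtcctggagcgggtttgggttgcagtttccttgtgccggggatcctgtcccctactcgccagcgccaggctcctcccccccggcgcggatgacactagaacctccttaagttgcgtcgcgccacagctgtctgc
Of the weaker hotspots, 6 lay upstream of the gene, between 18.7 and 34.5 kb from the canonical TSS, and 2 downstream, the farther at 76.8 kb with the score of 7.87.

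ELF3 (chr1:202007945-202017183, plus strand), an epithelial ETS factor, was the member with the most high-scoring hotspots. Of its 12, 6 scored above the 90th percentile of all hotspots and 5 were wider than 1000 bp. The hotspot over the canonical TSS, chr1:202009654-202011801, scored 34.3, the highest score of any member, and was 2148 bp wide. It also lay within 1000 bp of TSSs of ELF3-AS1, an antisense RNA gene, and of another gene that has no symbol. A further 1 at an upstream TSS scored 17.4. The remaining 4 lay past the end of the gene, just beyond it (score 20.0) and at 12.7 kb (16.9), 24.3 kb (27.4) and 46.3 kb (23.4) from the canonical TSS. All 8 hotspots outside the gene were downstream, and the next protein-coding TSSs, of RNPEP and GPR37L1, were at least 21.4 kb from each of them. When the TSSs of genes of all types could claim a hotspot, 5 of the 12 stayed with ELF3. The centre of the hotspot at 24.3 kb, the strongest past the end of the gene, is shown for its matches. It holds TGACGTCA, the letters bound by CREB and ATF factors, which 0.550% of all hotspots hold. It also holds a match to GGAATGT, the letters of TEAD factors.
ELF3 +24.3 kb, chr1:202034789-202034988, plus strand: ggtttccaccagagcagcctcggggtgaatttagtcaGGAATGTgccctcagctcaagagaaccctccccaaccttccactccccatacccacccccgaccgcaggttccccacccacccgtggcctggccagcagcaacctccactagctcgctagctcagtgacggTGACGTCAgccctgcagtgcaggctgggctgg

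EHF (chr11:34621093-34663288, plus strand), the close relative of ELF3 and ELF5, had its strongest hotspots away from its promoters. The promoter hotspot scored 13.5, and 1 at an internal TSS in intron 1 scored 8.24. In intron 6 a hotspot of 801 bp, chr11:34653719-34654519, scored 25.2. The highest, chr11:34685231-34685636, scored 28.9 in only 406 bp and lay 64.3 kb from the canonical TSS, past the end of the gene, with its AP-1 letters 29 bp from the midpoint. A neighbour 66.4 kb from the TSS scored 11.04 in 185 bp. Per 100 bp of width the score of the hotspot at 64.3 kb was 7.12, at percentile 94.5 of all hotspots, while the wide promoter hotspots of ELF3 and GATA3 were at percentiles 19.6 and 23.1. Of the 14 EHF hotspots, 11 scored above the median of all hotspots.

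ELF5 (chr11:34478791-34525193, minus strand) lies beside EHF, with 95.9 kb between the genes. Its only promoter hotspot scored 4.75 and lay 174 bp from a TSS within the gene, and the canonical TSS was 1505 bp from the nearest hotspot. The 5 other hotspots inside the gene, in introns 2 and 3, scored from 4.42 to 5.87. The space between the genes held 4 hotspots, of which 3 were nearest to ELF5 and 1 to EHF. The strongest of these, chr11:34570581-34571338, scored 16.5 and was within 1000 bp of the TSS of LINC02707, a long noncoding RNA gene. From its edge the nearest ELF5 TSS was 45.4 kb away and the nearest EHF TSS 49.8 kb. With only canonical TSSs, or with TSSs of genes of all types, it was not ELF5's, so that the only ELF5 score above the 90th percentile, and the AP-1 letters in its top hotspot, depend on the TSSs used.

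SPDEF (chr6:34537802-34556333, minus strand), a factor of secretory epithelia, had no hotspot within 4.59 kb of its canonical TSS. The 1 hotspot inside the gene, over coding sequence of exon 6, scored 4.84. Its highest, chr6:34609641-34610041, scored 15.8 and lay 53.5 kb upstream, nearer to SPDEF than to the next protein-coding TSS, that of ILRUN, at 61.9 kb. Its AP-1 letters were 15 bp from the midpoint, beside matches to the TEAD letters and to TGATAA, those of GATA factors. The promoter without a hotspot is shown for contrast with that of GATA3, and none of the 11 motifs matched in it.
SPDEF promoter, chr6:34556330-34556579, minus strand: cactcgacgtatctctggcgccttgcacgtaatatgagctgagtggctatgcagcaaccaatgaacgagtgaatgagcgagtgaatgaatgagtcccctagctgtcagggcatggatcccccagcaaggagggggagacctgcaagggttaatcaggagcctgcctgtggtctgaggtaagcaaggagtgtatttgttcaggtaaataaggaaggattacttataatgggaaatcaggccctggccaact

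**Figure D2:**
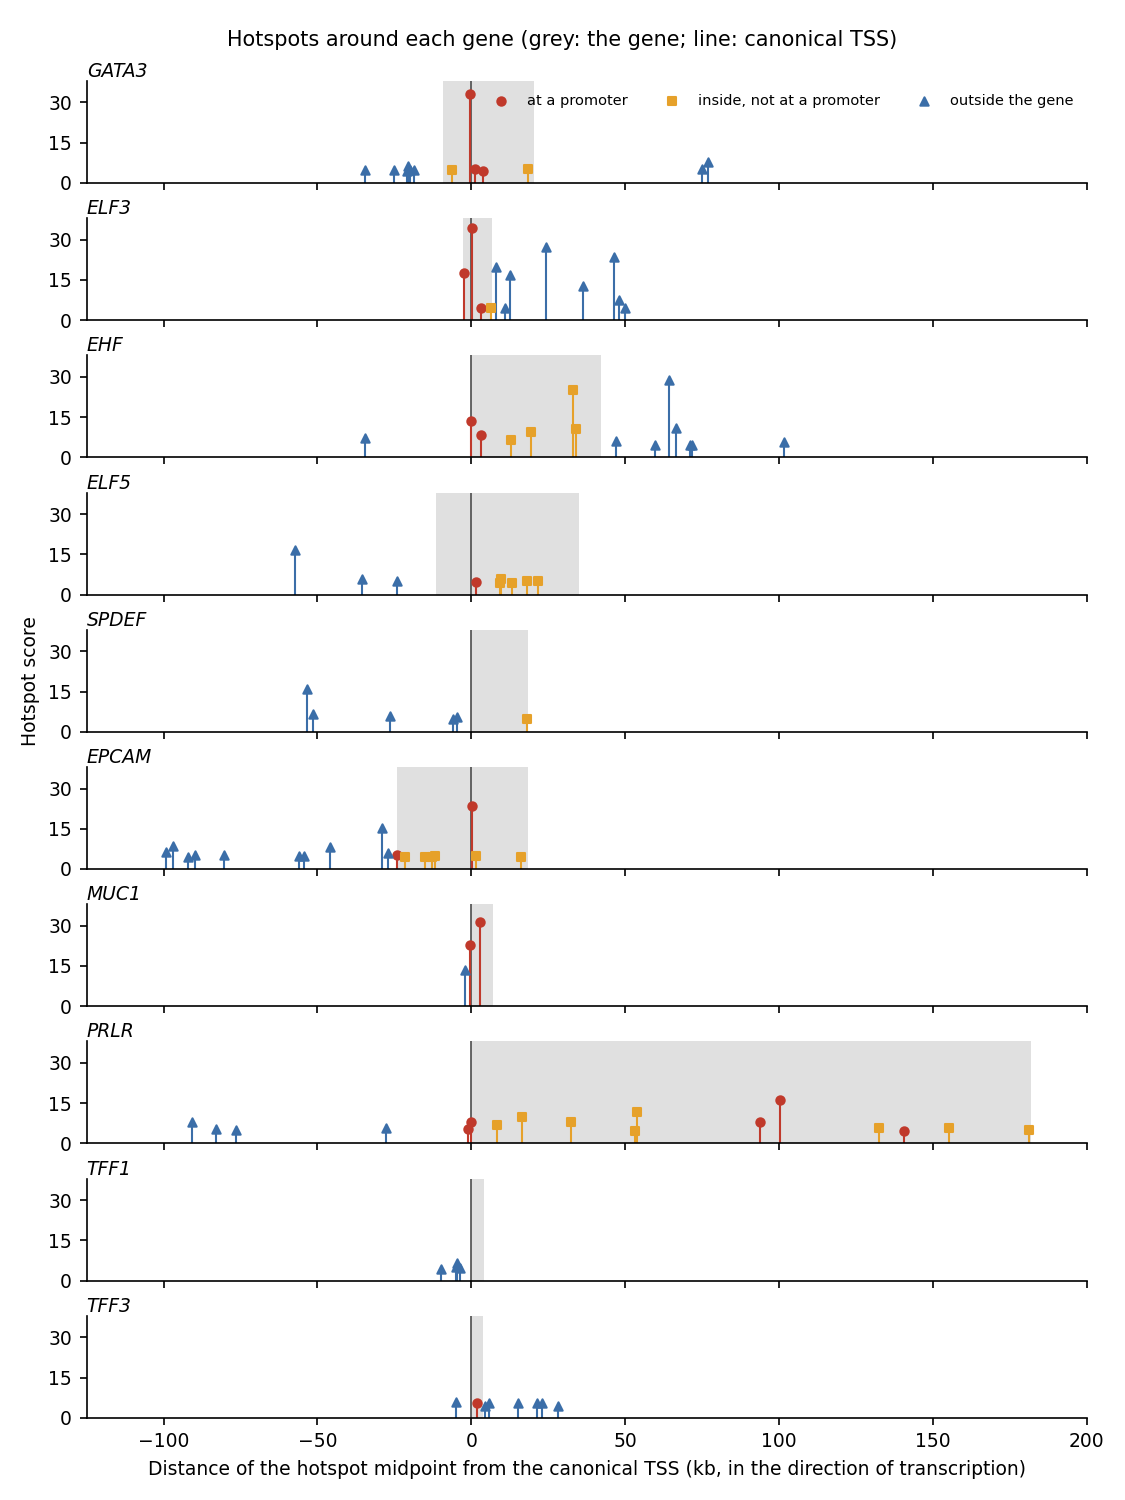
Hotspots of each gene by the distance of their midpoint from the canonical TSS (x axis, kb, positive in the direction of transcription) and by score (y axis), 1 panel per gene. Grey marks the gene and colours the class of the hotspot; EHF, ELF5 and SPDEF have their highest scores away from their TSSs, and ELF3 has a row of high scores downstream.

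EPCAM (chr2:47345158-47387601, plus strand), an adhesion molecule of epithelial cells, had 18 hotspots, the most of any member. The hotspot at the canonical TSS, chr2:47368984-47369982, scored 23.7 and was 999 bp wide. At the other end of the annotated gene, 24.1 kb upstream, a TSS had a hotspot of score 5.07, which also lay within 1000 bp of a TSS of EPCAM-DT, a divergent transcript. A hotspot 29.1 kb upstream of the canonical TSS scored 15.3. The other 15 scored from 4.38 to 8.70, and 10 of the 18 lay upstream of the gene. When the TSSs of genes of all types could claim a hotspot, 4 of the 18 stayed with EPCAM.

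MUC1 (chr1:155185824-155192916, minus strand), a mucin of the luminal surface, had 3 hotspots, all above the median score. The hotspot over its canonical TSS, chr1:155192837-155194121, scored 22.9, was 1285 bp wide and also lay within 1000 bp of a TSS of THBS3-AS1. The third, 2.01 kb upstream, scored 13.3 and lay within 1000 bp of TSSs of MIR92B and THBS3-AS1. The highest, chr1:155189151-155191345, scored 31.3 and was 2195 bp wide, and it counted as a promoter hotspot through a TSS 800 bp away. Its midpoint lay in intron 2 of the canonical transcript, and whether other transcripts code for protein there was not examined. The sequence repeats in tandem: in the reference, 87.2% of its bases equalled the base 60 bp further on, and it held 33 of the members' 61 matches to the TFAP2 letters and 32 of their 54 matches to the SP and KLF letters. Of the 32 gaps between neighbouring TFAP2 matches in it, 26 were of exactly 60 bp. The part of the repeat in this score was not tested. The sequences below show the promoter (RefSeq, with 1 match each to the SP and KLF and the TFAP2 letters) and the centre of the repeat, where capitals mark TFAP2 letters.
MUC1 promoter, chr1:155192916-155193165, minus strand: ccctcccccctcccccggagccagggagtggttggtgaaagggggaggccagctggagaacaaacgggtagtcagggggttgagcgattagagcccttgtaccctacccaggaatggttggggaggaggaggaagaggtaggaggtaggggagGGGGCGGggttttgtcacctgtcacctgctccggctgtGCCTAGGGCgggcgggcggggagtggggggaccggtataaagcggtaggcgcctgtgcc
MUC1 repeat, chr1:155190149-155190348, plus strand: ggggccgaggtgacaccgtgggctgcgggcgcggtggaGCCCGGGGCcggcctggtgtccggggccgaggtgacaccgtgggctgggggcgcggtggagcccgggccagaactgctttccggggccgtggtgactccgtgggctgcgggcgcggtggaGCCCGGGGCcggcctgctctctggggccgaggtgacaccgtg

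PRLR (chr5:35048756-35230487, minus strand), the receptor through which prolactin acts, is the longest member at 182 kb and had 17 hotspots, 12 of them inside. Its 5 promoter hotspots scored 16.1, 8.14, 7.87, 5.24 and 4.67. The strongest, chr5:35129869-35130552, covered an alternative TSS in intron 1, 100 kb downstream of the canonical one, and the hotspot over the canonical TSS, chr5:35230190-35230672, scored 8.14. In intron 1 a further hotspot that was not at a TSS scored 11.9. Per 10 kb of gene PRLR had 0.660 hotspots, MUC1 2.82 and ELF3 4.33. The hotspot at its far end, of score 4.86, was 909 bp from a TSS of AGXT2 and was the only 1 inside a member that was nearest to another gene. The hotspots nearest the promoter limit were at PRLR, 897 and 908 bp from a TSS, and the next beyond it were at EHF (1321 bp) and EPCAM (1325 bp).

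TFF1 (chr21:42362282-42366535, minus strand), an estrogen-regulated secreted peptide, had no hotspot inside it, and the nearest lay 3.52 kb from its TSS. Its 4 hotspots, all upstream and within 9.72 kb, scored 6.58, 4.93, 4.62 and 4.39. The first and second of these lay in tandem repeats, in which 65.6% of bases equalled the base 20 bp on and 75.5% the base 40 bp on. Over all hotspots long enough to score, 2.43% exceeded 60% at any period from 10 to 100 bp, and among the members these hotspots of TFF1 and that of MUC1 were the only 3 that did. The centre of the first is shown since it is the strongest hotspot TFF1 has, and no motif matched in it.
TFF1 -4.53 kb, chr21:42370966-42371165, plus strand: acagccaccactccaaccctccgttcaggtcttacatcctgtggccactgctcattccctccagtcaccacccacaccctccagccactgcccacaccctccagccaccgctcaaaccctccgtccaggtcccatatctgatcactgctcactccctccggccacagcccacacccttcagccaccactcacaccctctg
TFF3 (chr21:42311667-42315409, minus strand), a second secreted trefoil peptide, had 8 hotspots that scored from 4.40 to 5.96. Its promoter hotspot, chr21:42313468-42313765, scored 5.38 and lay at a TSS of a transcript whose coding sequence is not defined, and the canonical TSS was 1.64 kb from any hotspot. The 54.9 kb from TFF3 to TFF1, which hold the related gene TFF2, had 6 hotspots of scores 4.62 to 7.43. Hotspots were not scarce around this locus, at 95.4 per Mb of a full window of 5 Mb on either side of TFF1. Chromosome 21 ends inside that window, so this density is a lower bound and its rank beside MUC1 is not known. Beside it, the density was 58.8 per Mb in all, 98.8 around MUC1 and 47.5 around PRLR. Copy number was not measured and its part in these densities was not tested.

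**Figure D3:**
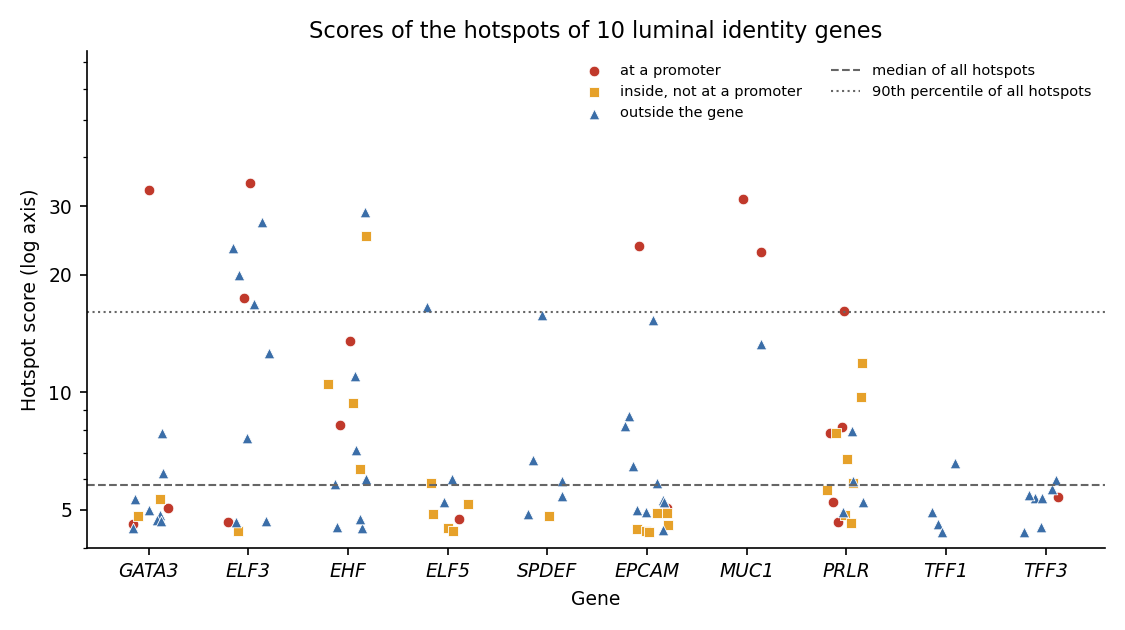
Score of each hotspot (y axis, log scale) by gene (x axis), with symbols for hotspots at a promoter, inside the gene and outside it. The dashed line is the median of all hotspots (5.81) and the dotted line their 90th percentile (16.1); 13 hotspots of 6 genes lie above the dotted line and none of TFF1, TFF3, SPDEF or PRLR does.

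Taken over the set, the 104 hotspots had a median score of 5.46, beside 5.81 for all hotspots, and 13 of them (12.5%) scored above the 90th percentile. Of those 13, 6 belonged to ELF3, 2 each to MUC1 and EHF, and 1 each to GATA3, EPCAM and ELF5. Of the 13, 6 were at a promoter, 1 was inside a gene and 6 were outside. With scores divided by width, 5 hotspots were above the 90th percentile, and of the 13 only the EHF hotspot at 64.3 kb was among them. The hotspot with the highest score lay away from the gene's TSSs in 5 of 10 members (EHF, ELF5, SPDEF, TFF1 and TFF3), beside 45.0% of genes with an assigned hotspot. With TSSs of genes of all types, the top hotspots of EHF, ELF5 and SPDEF were nearest to genes that do not code for protein. A hotspot lay inside 9 of 10 members, beside 87.0% of all genes. The members had a median of 10.5 assigned hotspots, from 3 at MUC1 to 18 at EPCAM, beside 5.00 for all genes. With TSSs of genes of all types in the competition, these medians were 5 and 3. Within 100 kb of the canonical TSS, whatever the nearest gene, they had a median of 20.5 hotspots and all genes had 18. MUC1 had 29 within that distance and 3 assigned, EPCAM 24 and 18, and GATA3 13 and 13.

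Width rose with score in the whole list, with a Spearman rho of 0.537 over all hotspots and 0.624 over the 104, which share 1 pooled library. The members' hotspots had a median width of 310.0 bp, beside 287.0 bp for all. The 19 at promoters had a median width of 375.0 bp and a GC content of 57.9%, against 550.0 bp and 61.2% for all 24700 promoter hotspots. These 19 came from 8 genes, with 5 from PRLR, so a gene could count more than once. The highest-scoring promoter hotspot of each gene was often wider than that median. It was 2195 bp wide at MUC1, 2148 at ELF3, 1975 at GATA3, 999 at EPCAM, 684 at PRLR and 677 at EHF. At TFF3 it was 298 bp wide and at ELF5 288 bp. A CpG ratio (observed over expected) above 0.6 was found in 5 of the 19 and in 50.9% of all promoter hotspots.

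**Figure D4:**
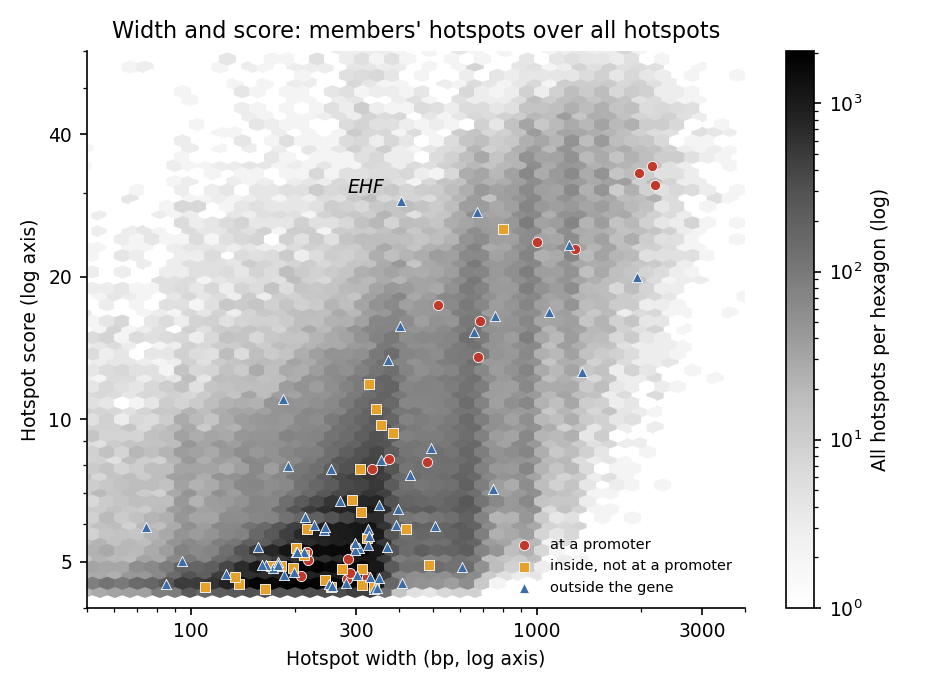
Width (x axis, bp) and score (y axis) of the members' hotspots, both on log scales, over the density of all hotspots (grey). The axes leave out 555 hotspots that score above 60, 47 wider than the right edge and 3064 narrower than 50 bp, none of them of a member; the label marks the EHF hotspot of score 28.9 and width 406 bp.

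The GATA letters AGATAA and TGATAA were in 16 of 104 (15.4%), a share just under that of all hotspots, and the ETS letters CAGGAAG and CCGGAAG in 17 (16.3%) and 17.1%. No GATA letters were found in any of the 13 GATA3 hotspots, nor in those of ELF5, MUC1 and TFF1, whereas ELF3 had them in 5 of 12 and EHF in 4 of 14. The hotspots of GATA3 summed to 4.71 kb with a median GC content of 61.4%. Those of ELF3 summed to 10.6 kb (56.3%) and those of EHF to 5.43 kb (48.6%). TEAD letters, GGAATGT and GGAATGC, were in 16 (15.4%) beside 9.84% of all, and in the central 200 bp in 8 (7.69%) beside 6.13%. AACNGGTT, bound by GRHL factors, was in 4 (3.85%) beside 2.10% of all, at EHF (2), SPDEF and PRLR, and in the top hotspot of 3 of 10 members beside 3.94% of genes. In the central 200 bp it was in 1 (0.962%) beside 1.15% of all, and in 0 of the 10 top hotspots beside 0.920% of genes. TFAP2 letters were in 22 (21.2%) beside 16.5%, and TGACGTCA in 2 (1.92%) beside 0.550%. FOX letters (TGTTTAC) were in 5 (4.81%) beside 4.69%, and RUNX letters (TGTGGTT) in 8 (7.69%) beside 6.11%. STAT letters (TTCNNNGAA) were in 9 (8.65%) beside 7.35%, with 4 of the 9 at ELF3 and 0 at PRLR, ELF5, SPDEF, TFF1 and TFF3. At promoters the ETS letters were in 5 of 19 members' hotspots and in 35.5% of all promoter hotspots, and the SP and KLF letters in 6 of 19 and in 43.2%. Of 35116 RefSeq promoters, from 250 bases before to 50 after a start, 4.95% held the AP-1 letters, 21.8% the ETS letters and 30.8% the SP and KLF letters. Of the members' hotspots 41 held none of the 11 motifs, and 42.6% of all hotspots held none. The members' 10 top hotspots were also compared with those of all genes, whose share is in brackets. TFAP2 letters were in 5 (46.1%), and TEAD and GATA letters in 3 each (14.9% and 21.6%). ETS and SP and KLF letters were in 3 each (38.9% and 46.3%). RUNX letters were in 2 (8.83%), STAT letters in 1 (13.9%), and FOX letters and TGACGTCA in 0 (6.94% and 2.83%).

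The 47 genes of 5 further lists are called other luminal genes here. Of these, 14 were listed only as relatives of the members and 6 for the prolactin pathway, not as luminal markers. Of the 47, 41 had a promoter hotspot and 25 scored above the 90th percentile of hotspots, beside 77.2% and 47.4% of all protein-coding genes. Among keratins and junction proteins 8 of 9 had one, led by KRT8 (32.4), and KRT19 had none. All 12 transcription factor genes had one, led by TBX3 (39.1), but those of the hormone receptors ESR1 (7.12) and PGR (4.93), genes named after their values were seen, were low. Counting all assigned hotspots, ESR1 had 22, the highest scoring 32.3, and PGR had 4, the highest scoring 4.93. In the prolactin pathway all 6 genes had one, led by JAK2 (40.2), the kinase bound to PRLR, while STAT5A, which carries the signal to DNA, scored 4.68 (also named after its value was seen). Among receptors and secreted proteins 4 of 6 had one, led by ERBB3 (38.7), and AGR3 and ANKRD30A had none. Among relatives of the members 11 of 14 had one, led by ETS1 (45.6), and GATA5, MUC4 and TFF2 had none. Of the genes without a promoter hotspot, KRT19 (27.4), MUC4 (23.3) and AGR3 (22.5) had an assigned hotspot above the 90th percentile. The highest assigned scores of GATA5 (9.95), TFF2 (7.43) and ANKRD30A (6.03) were below it.

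**Figure D5:**
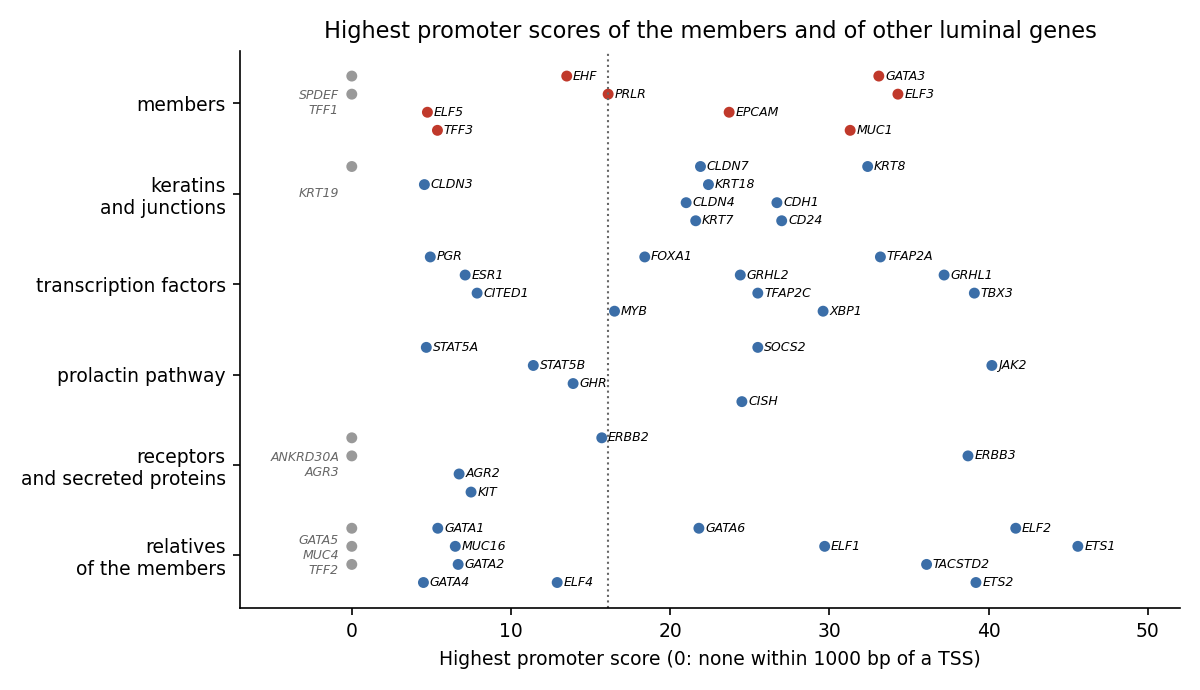
Highest promoter score (x axis, score without unit) of the members (red) and of other luminal genes by list, relatives of the members included (blue, 1 transcription factor gene is not drawn). Genes that have no hotspot within 1000 bp of a TSS are in grey at 0. The dotted line is the 90th percentile of all hotspots (16.1); SPDEF, TFF1, KRT19, ANKRD30A, AGR3, GATA5, MUC4 and TFF2 lie at 0.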

How the data were processed

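ATAC-seq, which cuts accessible DNA with the transposase Tn5, was performed in MCF10A cells. According to the study's methods and the submitters' processing notes, paired-end libraries of 5 replicates were aligned to hg38 with Bowtie2 (version for these reads not given in the sources used here). The authors pooled the alignments, removed duplicates and called hotspots with Hotspot version 4.1 (tag length 75) at a false discovery rate of 0.01, omitting satellite regions; no shift for Tn5 is stated. The deposited list gives 1 score per hotspot as Hotspot wrote it, with no scaling stated. The number of reads behind it is unknown, and with replicates pooled there is no error, interval or test. The members and gene lists were chosen with earlier results of these data known.

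Hotspots were joined to GENCODE release 44 (20033 protein-coding genes, 146431 TSSs of any of their transcripts, 78567 TSSs of protein-coding transcripts) with Python 3.11.15, pandas 2.3.3 and pysam 0.24.0. Every hotspot fitted within its hg38 chromosome. All 10 symbols matched 1 protein-coding gene each. A promoter hotspot lay within 1000 bp of any TSS of the gene, an inside hotspot overlapped the gene, and an assigned hotspot had the gene's TSS as its nearest TSS of a protein-coding transcript within 100 kb, measured from its nearest edge. Percentiles are shares of hotspots, or of genes, with a lower value, and genes without a promoter hotspot counted as 0. Motifs were exact letters on both strands. RefSeq promoters (GRCh38.p14) matched 7 of 10 members. The named genes were the members, their neighbours at shared hotspots and, from each list of other luminal genes, the highest promoter score and every gene with none. ESR1, PGR, STAT5A, genes at hotspots shared with RNA genes, and the marker genes were named outside this rule. A few items are not reported here. The steps were tested on simulated data. Other windows, TSS sets, distance limits, score filters and score per width were tried as alternatives.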

Additional observations from a re-analysis of the deposited data

How the results depend on the processing

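Of 45 alternatives, 29 stayed within 1.5 times the count reported. With only the canonical TSS, the members' promoter hotspots fell from 19 to 8, at 6 genes. With only hotspots above the median score, there were 11 at promoters, 21 inside the genes and 49 assigned, fewer by construction. When TSSs of genes of all types competed, 62 of 103 hotspots stayed assigned. With only canonical TSSs, 94 of the 103 stayed and 9 were gained, and the top hotspots of ELF5 and PRLR were nearest to EHF and AGXT2. Divided by width, the score of 5 members' hotspots was above the 90th percentile in place of 13. The narrower and wider promoter windows left 8 members with a promoter hotspot, TSSs of protein-coding transcripts alone left 7, without TFF3, and limits of 50 and 25 kb left 90 and 72 assigned hotspots. In the central 200 bp, 10 of the 11 motifs matched in fewer hotspots by over 1.5 times. Competition by all transcripts of protein-coding genes (98 assigned) and the other windows for the other luminal genes (37 to 44 of 47) were chosen after seeing the data.

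The unknown depth and the pooling of replicates limit every value. No paired analysis was possible because replicates were pooled, and none was left out: the list holds 1 score per hotspot for all 5 replicates.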
